A study of Mus musculus with 24 samples.

Results

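The genes described here encode large proteins of the brain extracellular matrix. They are fibronectin (Fn1), the tenascins Tnc and Tnr, the lectican proteoglycans versican (Vcan), brevican (Bcan), neurocan (Ncan) and aggrecan (Acan), and the small leucine-rich proteoglycans fibromodulin (Fmod), decorin (Dcn) and lumican (Lum). These 10 genes were chosen by symbol out of 49671 genes counted, and each matched 1 row of the count table. The RNA-seq data comprised 24 mouse libraries in 6 groups of 4. NSC were neural stem cells derived from an embryonic stem cell line of C57BL/6N mice and grown in EGF and FGF, at 20 ng/ml each. AGES were astrocytes differentiated from those NSC with 20 ng/ml BMP4 for 3 to 5 days on poly-L-ornithine and laminin. neoAC direct and AdAC direct were astrocytes of C57BL/6J mice aged 4 to 8 days and 100 to 140 days, isolated with magnetic beads against the ACSA-2 antigen and frozen without culture. neoAC CellC and AdAC CellC were isolated with the same beads from the same ages and then cultured for 7 to 10 days in AstroMACS medium on poly-L-lysine and laminin. Each primary replicate was an isolation from 2 pooled mice, whereas the NSC and AGES replicates were cultures of different passages of a single line. Neonatal and adult brains were dissociated with different kits, and removal of debris and red blood cells is stated for adult brains only. Removal of the meninges is stated for neonatal brains only. Removal of the olfactory bulb and cerebellum is stated for the direct isolation of adult cells and not for their culture. Age, kit and these steps cannot be told apart. In adult cells, culture and the removal of these brain regions cannot be told apart either. The mouse substrain differed between the line of the NSC and AGES and all primary cells, so substrain and cell origin cannot be told apart. The coating differed between AGES and the primary cultures, as did the medium.

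In the brain, lecticans are chondroitin sulfate proteoglycans that bind hyaluronan at one end and tenascins at the other, and link proteins stabilise the binding to hyaluronan. The resulting lattice fills the space between cells and, in its dense form, makes up perineuronal nets. Astrocytes and oligodendrocyte precursors are known as sources of Bcan, Ncan and Vcan, while Acan in nets comes largely from neurons. Tnc and Fn1 are typical of developing and injured tissue, and Fmod, Dcn and Lum bind collagen fibrils and are well known from connective tissue.

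Library totals ran from 27904126 to 37997368 assigned counts. Levels are given as CPM, the counts of a gene scaled to a common library total, after TMM scaling of library size, and levels of different genes are set side by side only per kilobase of exon. Differences are log2 fold changes from edgeR's quasi-likelihood test, called at a Benjamini-Hochberg adjusted p under 0.05 over 19691 genes. All 10 genes passed the filter on low counts. For Acan this rested on all 4 neoAC direct libraries and 3 neoAC CellC libraries, and for Dcn and Lum on the 16 primary libraries, with none of the NSC or AGES libraries past the cutoff. The summed level of 9 astrocyte markers was 15997 to 16725 CPM in AdAC direct and 918 to 1411 CPM in AdAC CellC, so the markers defining the labelled cell type were low in the cultured adult libraries. It was 21194 to 24184 CPM in neoAC direct, 7405 to 8607 CPM in neoAC CellC, 55108 to 60034 CPM in AGES and 1942 to 2470 CPM in NSC. Markers of oligodendrocytes (8 genes) summed to 24232 to 27379 CPM in AdAC direct, 3971 to 10257 CPM in AdAC CellC and at most 152 CPM elsewhere. In such bulk samples, fewer cells of a type and less RNA per cell cannot be told apart. Reads of Fn1, Tnc and Tnr can overlap exons of a gene on the opposite strand and the strand setting of the counting was not stated, but those neighbours reached at most 38, 16 and 1 counts in any library.

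The sequence just upstream of the start site is shown for 5 genes that the comparisons below turn on: Tnc and Vcan, which changed in opposite directions in adult and neonatal culture, Ncan and Bcan, and Fmod. Each run is the 250 bases before the RefSeq start on GRCm38, read along the gene's strand, and for Vcan, Bcan and Ncan this start differed from the start of the Gencode gene. Capitals mark matches to the motifs searched, both strands being read. The motifs were the AP-1 site (letters TGANTCA), the SMAD element (letters CAGAC), a GC-rich element bound by BMP-activated SMAD proteins (letters GGCGCC), the TEAD element (letters GGAATG), the TATA box (letters TATAAA) and the GC box (letters GGGCGG).
Tnc, chr4:64047016-64047265, minus strand: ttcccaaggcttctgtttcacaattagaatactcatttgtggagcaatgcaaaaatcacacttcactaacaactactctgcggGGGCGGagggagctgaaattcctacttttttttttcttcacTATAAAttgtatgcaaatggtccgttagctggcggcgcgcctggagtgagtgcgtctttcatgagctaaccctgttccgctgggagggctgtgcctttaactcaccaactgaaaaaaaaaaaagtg
Vcan, chr13:89742513-89742762, minus strand: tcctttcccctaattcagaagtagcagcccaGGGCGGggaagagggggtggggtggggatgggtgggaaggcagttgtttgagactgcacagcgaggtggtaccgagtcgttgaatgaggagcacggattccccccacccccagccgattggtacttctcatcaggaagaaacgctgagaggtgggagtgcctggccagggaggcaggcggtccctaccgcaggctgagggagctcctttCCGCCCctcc
Ncan, chr8:70120845-70121094, minus strand: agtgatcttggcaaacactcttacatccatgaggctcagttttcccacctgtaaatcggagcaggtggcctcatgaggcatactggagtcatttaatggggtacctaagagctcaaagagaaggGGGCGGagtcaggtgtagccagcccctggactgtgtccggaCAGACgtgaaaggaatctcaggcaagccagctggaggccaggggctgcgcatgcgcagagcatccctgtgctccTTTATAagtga
Bcan, chr3:88000357-88000606, minus strand: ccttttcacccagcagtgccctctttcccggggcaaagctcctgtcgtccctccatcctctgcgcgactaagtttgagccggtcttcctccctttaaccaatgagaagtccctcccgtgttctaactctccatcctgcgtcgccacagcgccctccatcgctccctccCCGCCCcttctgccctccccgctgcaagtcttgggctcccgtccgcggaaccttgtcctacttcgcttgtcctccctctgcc
Fmod, chr1:134037004-134037253, plus strand: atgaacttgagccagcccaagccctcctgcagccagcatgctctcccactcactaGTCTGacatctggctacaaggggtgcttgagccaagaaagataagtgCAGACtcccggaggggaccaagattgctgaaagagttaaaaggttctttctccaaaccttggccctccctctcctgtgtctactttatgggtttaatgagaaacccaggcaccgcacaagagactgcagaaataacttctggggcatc

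A window was at hand for 7 of the 10 genes. The Tnc window held a TATA box and a GC box, the Vcan window GC boxes at 2 places, the Bcan window a GC box, the Ncan window a TATA box, a SMAD element and a GC box, and the Fmod window SMAD elements at 2 places. The Acan window held overlapping GC boxes and a TEAD element, and the Tnr window a SMAD element. Of 32851 windows of the same length, 32.7% held the GC box, 42.2% the SMAD element, 12.4% the TATA box, 12.6% the TEAD element, 6.75% the AP-1 site and 9.59% the GC-rich element. Neither of the last 2 was in any of the 7 windows. The matches describe the letters alone.

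**Figure D1:**
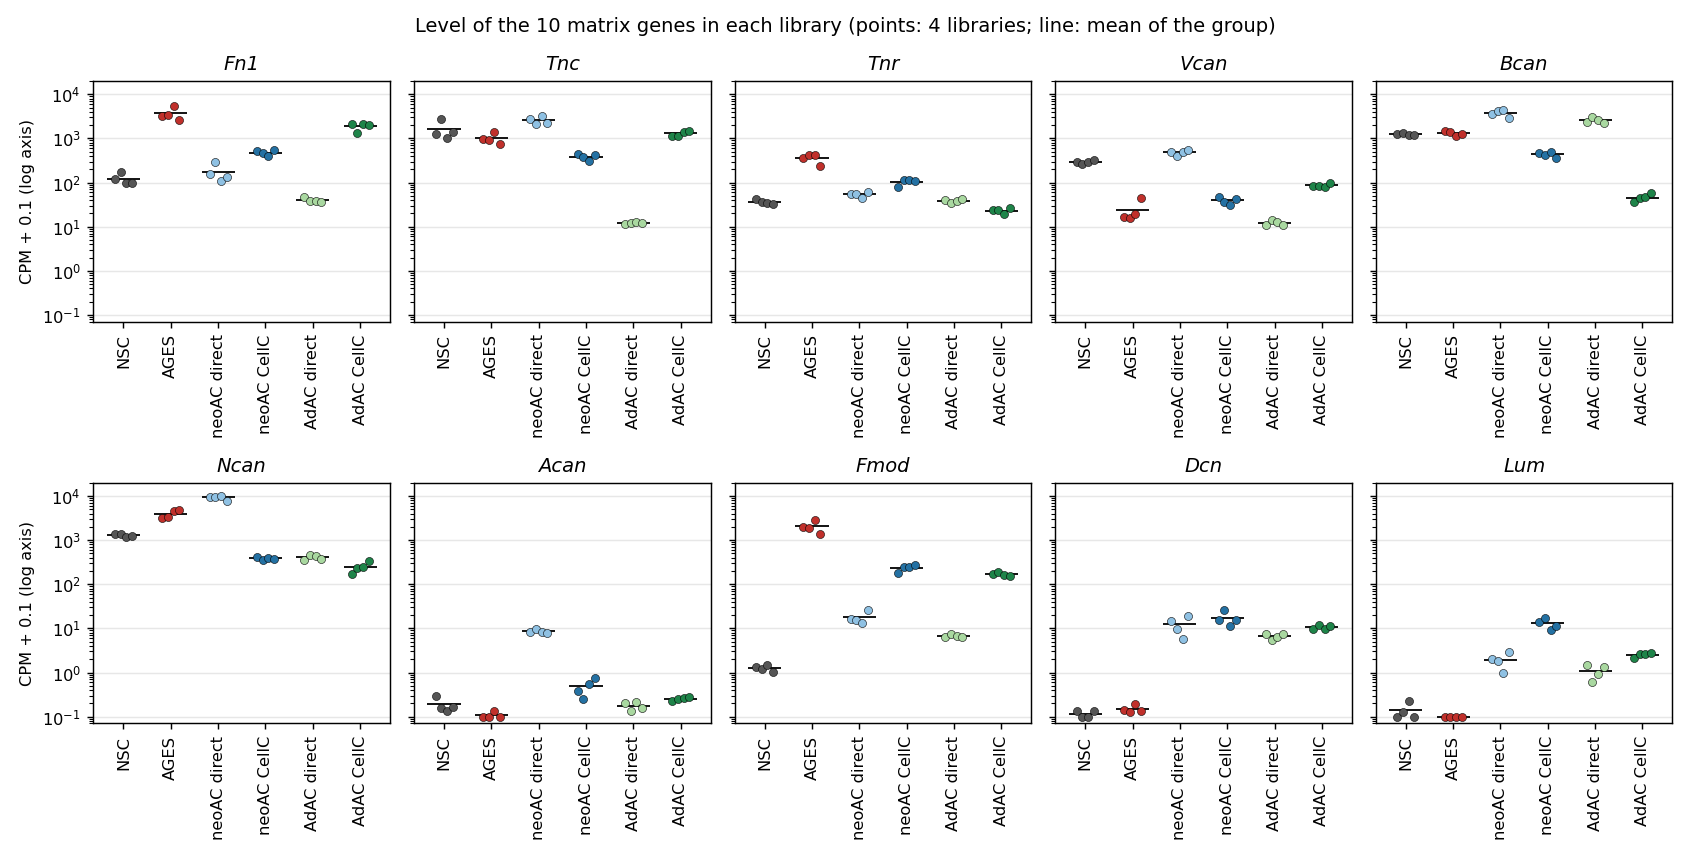
Level of each of the 10 genes in every library, as CPM + 0.1 on a log axis, 1 panel per gene. Points are the 4 libraries of a group and the line is their mean. AGES were highest in Fn1, Tnr and Fmod, and neoAC direct were highest in the other tenascin and in all 4 lecticans.

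Fn1, the glycoprotein that cells bind through integrins such as the Itga5 heterodimer, lies on chromosome 1 (71585520 to 71653200, minus strand, 11685 exon bases). It was lowest in AdAC direct, at 47.4, 39.0, 38.6 and 36.4 CPM. The cultured adult libraries held 2129, 1331, 2114 and 2011 CPM, and the AGES libraries 3256, 3456, 5409 and 2650 CPM. All 4 AGES libraries stood above all 4 AdAC CellC libraries, and both groups stood far above the uncultured adult cells. The neonatal cells held 153, 294, 106 and 132 CPM when uncultured and 511, 467, 399 and 539 CPM in culture. NSC had 121, 175, 99.7 and 96.2 CPM. The order of the group means was AGES, AdAC CellC, neoAC CellC, neoAC direct, NSC and AdAC direct, and among neighbours in this order neoAC direct and NSC did not differ by the test.

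Tnc, an anti-adhesive glycoprotein of neural stem cell niches and of reactive tissue, lies on chromosome 4 (63959785 to 64047015, minus strand, 7772 exon bases). Uncultured neonatal astrocytes had 2813, 2104, 3225 and 2189 CPM and uncultured adult astrocytes 11.1, 12.3, 12.5 and 12.2 CPM. In culture the values were 434, 373, 306 and 431 CPM for neonatal and 1153, 1161, 1425 and 1446 CPM for adult cells. Culture thus stood below the fresh neonatal cells and above the fresh adult cells, with no overlap in either case. The NSC libraries held 1292, 2798, 1025 and 1378 CPM, the second lying well above the others, and AGES held 986, 942, 1435 and 767 CPM. NSC, AdAC CellC and AGES, which follow one another in the order of means, did not differ as neighbours by the test.

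Tnr, the tenascin of perineuronal nets and of oligodendrocyte lineage cells, lies on chromosome 1 (159523769 to 159931729, plus strand, 12867 exon bases). It was highest in AGES, at 364, 424, 420 and 234 CPM, and next in neoAC CellC, at 78.0, 113, 113 and 109 CPM. AdAC CellC were lowest, at 19.7 to 25.8 CPM. The other 3 groups lay between 33.2 and 61.4 CPM, where AdAC direct and NSC did not differ as neighbours. Per kilobase, Tnc stood above Tnr in every group but AdAC direct: the ratio of Tnc to Tnr was 93.7 in AdAC CellC, 81.6 in neoAC direct, 74.4 in NSC, 6.43 in neoAC CellC, 4.81 in AGES and 0.514 in AdAC direct.

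Vcan, the widely distributed lectican of migratory and developing tissue, lies on chromosome 13 (89655312 to 89742509, minus strand, 14462 exon bases). Uncultured neonatal cells held 505, 391, 484 and 553 CPM and NSC held 293, 264, 289 and 321 CPM. Uncultured adult cells were lowest, at 11.1, 13.8, 12.8 and 11.0 CPM. The cultured adult libraries had 85.3, 84.2, 81.1 and 96.8 CPM, and the cultured neonatal libraries 48.2, 36.4, 31.0 and 42.3 CPM. All cultured adult libraries were thus above all cultured neonatal ones, the opposite of the order in uncultured cells. In AGES the fourth library, at 44.5 CPM, stood apart from the other 3, at 16.7, 15.3 and 19.0 CPM, and it alone overlapped neoAC CellC.

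Bcan, the lectican most restricted to the brain, lies on chromosome 3 (87987531 to 88000230, minus strand, 4064 exon bases). It was high in uncultured cells of both ages, at 3649, 4272, 4309 and 2959 CPM in neonatal and 2360, 3009, 2682 and 2224 CPM in adult libraries. Culture left 465, 423, 492 and 353 CPM in neonatal cells and 35.5, 43.5, 46.2 and 56.6 CPM in adult cells. The fresh neonatal and adult libraries overlapped, whereas the cultured ones lay far apart. NSC held 1201 to 1323 CPM and AGES 1143 to 1472 CPM, and these did not differ by the test.

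Ncan, the lectican abundant in late embryonic and early postnatal brain, lies on chromosome 8 (70093085 to 70120873, minus strand, 7195 exon bases). Uncultured neonatal astrocytes held 9730, 9671, 10139 and 7716 CPM, which per kilobase was the highest mean of any of the 10 genes in any group (1295 CPM per kb, SD 151, n = 4). Uncultured adult astrocytes held 354, 469, 434 and 365 CPM. AGES followed the neonatal cells with 3130.1, 3308, 4500.2 and 4933 CPM, and NSC came next with 1395, 1393, 1200.1 and 1228 CPM. These 3 groups did not overlap with one another or with the adult cells. Cultured neonatal cells, at 422, 352, 396 and 372 CPM, did not differ from uncultured adult cells by the test. Cultured adult cells were lowest, at 175, 237, 251 and 339 CPM.

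Acan, the lectican best known from cartilage and perineuronal nets, lies on chromosome 7 (79053483 to 79115099, plus strand, 7469 exon bases). It was low outside uncultured neonatal cells, which held 8.32, 9.44, 8.36 and 7.58 CPM from 1071 counts. Cultured neonatal cells had 0.281, 0.157, 0.443 and 0.665 CPM, from 55 counts. The 4 libraries together gave 21 counts in AdAC CellC, 11 in NSC, 10 in AdAC direct and 1 in AGES. None of these libraries was past the low-count cutoff, so Acan was tested here only through the neonatal groups. By the test AGES were lower than each of the other 3 of these groups, whose differences from one another did not pass. These calls rest on 1 count in AGES, whose libraries overlapped those of NSC and AdAC direct. The ratio of AdAC direct to AGES was 9.39, with an exact 95% interval of 1.34 to 407 for counting error only.

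Fmod, a small leucine-rich proteoglycan that binds collagen and TGF-beta, lies on chromosome 1 (134037254 to 134048277, plus strand, 3306 exon bases). In NSC it was near absent, at 1.21, 1.12, 1.40 and 0.936 CPM, and in AGES it reached 2021, 1905, 2888 and 1357 CPM. Both cultured groups held less than AGES, with 178, 245, 242 and 275 CPM in neonatal and 168, 189, 158 and 157 CPM in adult cells. Uncultured cells were lower again, with 15.9, 15.3, 13.5 and 25.8 CPM in neonatal and 6.39, 7.41, 6.48 and 6.43 CPM in adult cells. Fmod was thus separated between cultured and uncultured cells at both ages, and in AGES it had the highest mean of the 10 genes per kilobase (618 CPM per kb, against 551 for Ncan, 325 for Bcan and 316 for Fn1). That order with Ncan held in 3 of 4 libraries and was turned in the fourth, at 411 CPM per kb for Fmod and 686 for Ncan.

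Dcn and Lum, which shape collagen fibrils and mark fibroblasts, lie close together on chromosome 10 (97479609 to 97518143, 5838 exon bases, and 97565128 to 97572703, 2448 exon bases, both on the plus strand). Dcn was at 2 counts in the 4 NSC libraries and 6 in AGES. Lum was at 5 counts in NSC and at 0 in all 4 AGES libraries, and a group total of 3 counts or fewer was taken as at the floor. In primary cells Dcn held 14.8, 9.83, 5.67 and 18.9 CPM in neoAC direct and 15.4, 25.5, 11.2 and 15.7 CPM in neoAC CellC. Adult cells held 7.45, 5.28, 6.39 and 7.45 CPM of Dcn when uncultured and 9.70, 11.8, 9.35 and 11.2 CPM in culture. Dcn did not differ between neighbours among the 3 highest groups, whereas Lum was highest in cultured neonatal cells, at 13.7, 17.5, 8.87 and 11.3 CPM. Lum lay at 0.883 to 2.83 CPM in neoAC direct, 2.06 to 2.67 CPM in AdAC CellC and 0.525 to 1.35 CPM in AdAC direct. In the neoAC direct and neoAC CellC groups the third library was lowest in Dcn and in Lum, and also in the sum of 10 fibroblast and meningeal markers, at 201 and 386 CPM against 288 to 323 and 432 to 634 CPM in the others of its group. The adult groups went otherwise. In AdAC direct the second library was lowest in Dcn and in Lum and highest in that sum, at 100.3 CPM. In AdAC CellC the second library was lowest in that sum, at 1088 CPM, and highest in Dcn. The part of such cells in these levels was not tested.

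Over the 10 genes, 50 pairs of neighbouring groups in the orders of levels were tested, of which 37 passed and 30 of these had no overlapping libraries, while 13 did not pass. Over the 15 pairs of groups, 63.8% to 86.2% of all genes were called. The order for Fn1, Tnr and Fmod began with AGES and the order for Tnc, Vcan, Bcan, Ncan and Acan with neoAC direct. The lowest group was AdAC direct for Fn1, Tnc and Vcan, AdAC CellC for Tnr, Bcan and Ncan, and NSC or AGES for Acan, Fmod, Dcn and Lum.

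The comparison of neoAC direct with AdAC direct asks how these genes differ with age before culture. All 10 were higher in neonatal than in adult cells, where 71.4% of all genes tested were called, 35.0% higher and 36.4% lower. The median difference of the 10 was 1.74 (log2), against 0 for all genes. The differences were largest in Tnc (log2 fold change 7.74, SE 0.31, adjusted p = 3.32e-16 by edgeR), 215-fold by the means, and in Acan, with 1071 counts against 10 and a ratio of 109.9 (exact 95% interval 59.5 to 230, counting error only). Tnc ranked 15 of 19691 genes from the highest. Vcan was 39.7-fold higher (5.31, SE 0.27, adjusted p = 3.62e-14 by edgeR) and Ncan 22.96-fold (4.52, SE 0.18, adjusted p = 6.76e-17 by edgeR). By contrast Bcan and Tnr were 1.48-fold and 1.39-fold higher, with log2 fold changes of 0.56 and 0.47. Fn1 was 4.25-fold and Fmod 2.64-fold higher. Libraries did not overlap for 7 of the 10 genes (64.9% of all genes), the exceptions being Bcan, Dcn and Lum. The difference of Lum (0.93, adjusted p = 0.0201 by edgeR) was not called without the fourth neoAC direct library (0.65, adjusted p = 0.104) or when the second or the third AdAC direct library was left out (0.72 and 0.84, adjusted p = 0.0773 and 0.0563), over a range of 0.00365 to 0.104 among its alternatives. The fibroblast and meningeal list also moved with age, 6 of 10 markers being higher and 1 lower in neonatal cells (201 to 323 against 82.5 to 100.3 CPM). Of 8 neural stem cell markers 8 were higher in neonatal cells (6796 to 8608 against 799 to 952 CPM), and of 8 neuron markers 6 were higher and none lower (39.3 to 57.3 against 14.9 to 17.8 CPM). Of 8 endothelial markers 6 were higher and none lower (99.8 to 392 against 94.5 to 101 CPM). Of 8 ependymal markers 8 were lower in neonatal cells (167 to 256 against 1629 to 1861 CPM), as were 8 of 8 oligodendrocyte markers. Of the 7 oligodendrocyte precursor markers tested 3 were higher and 1 lower, while the sum of the list was 763 to 1075 CPM in neonatal and 1056 to 1277 CPM in adult cells. The part of such cells in these differences was not tested.

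The comparison of AdAC CellC with AdAC direct asks what culture goes with in adult cells. Removal of the olfactory bulb and cerebellum is stated for AdAC direct alone, so it cannot be told apart from culture here. Fn1, Tnc, Vcan, Fmod, Dcn and Lum rose and Bcan, Ncan and Tnr fell, so that 9 of the 10 changed where 78.0% of all genes were called, 38.8% higher and 39.2% lower. Tnc was 108-fold higher (log2 fold change 6.75, SE 0.30, adjusted p = 1.15e-15 by edgeR), a change whose size 1.25% of genes reached. Fn1 was 47.0-fold higher (5.56, SE 0.31, adjusted p = 1.87e-13 by edgeR), Fmod 25.1-fold (4.65, SE 0.22, adjusted p = 1.65e-15) and Vcan 7.12-fold (2.83, SE 0.24, adjusted p = 3.03e-10). In the other direction Bcan was 56.5-fold lower (-5.82, SE 0.17, adjusted p = 9.94e-20 by edgeR), a size that 2.26% of genes reached. Ncan was 1.62-fold and Tnr 1.69-fold lower (-0.70, SE 0.16, and -0.76, SE 0.15). Lum was 2.52-fold higher (1.34, SE 0.34, adjusted p = 0.00107 by edgeR). Dcn was 1.58-fold higher (0.66, SE 0.26, adjusted p = 0.0238 by edgeR), a call lost in DESeq2 (0.58, adjusted p = 0.0707), without a filter on low counts (0.56, adjusted p = 0.0860) and without the second AdAC direct or AdAC CellC library (0.57 and 0.62, adjusted p = 0.0749 and 0.0535), over a range of 0.000224 to 0.0860 among its alternatives. The 4 cultured and 4 uncultured libraries did not overlap in CPM for any of the 10 genes, where 76.3% of all genes behaved so. For Acan this came from scaling alone, the nearest libraries holding 4 counts each, at 0.123 CPM in AdAC CellC and 0.119 CPM in AdAC direct. Acan, at 21 counts against 10, did not pass the test (adjusted p = 0.12 by edgeR), and its ratio of 1.99 had an exact 95% interval of 0.897 to 4.73.

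**Figure D2:**
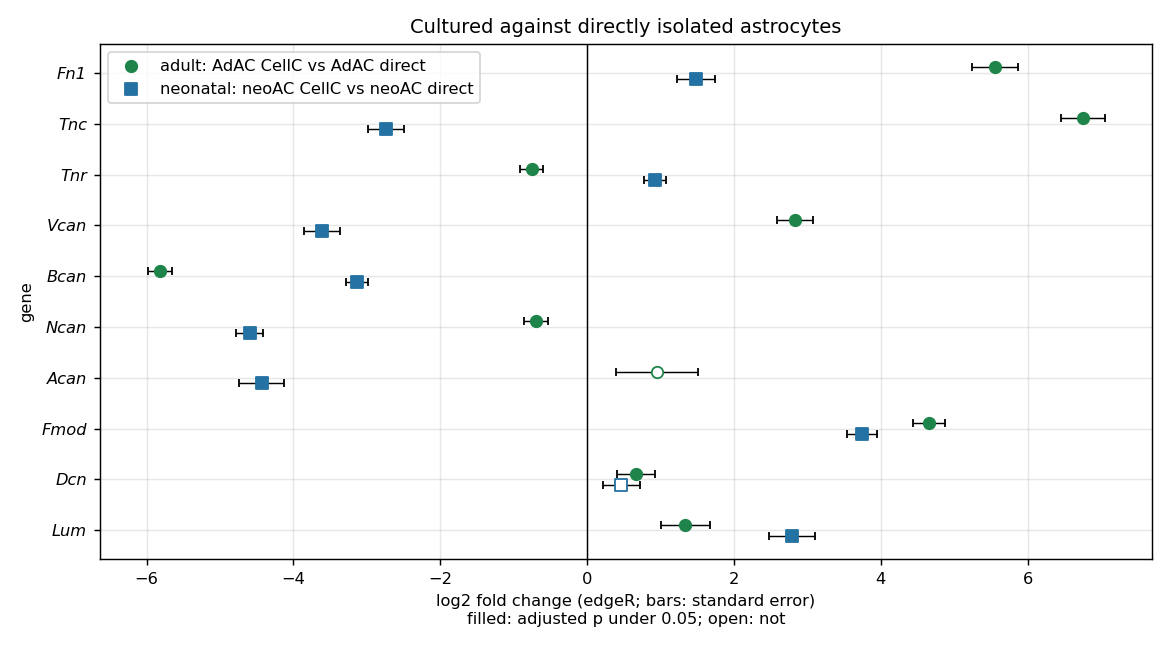
Difference between cultured and directly isolated cells for each gene, as log2 fold change with bars of 1 SE, in adult (green circles) and neonatal (blue squares) astrocytes. Filled symbols are called at an adjusted p under 0.05. The symbols of Tnc and Vcan lie on opposite sides of 0, those of Bcan and Ncan both lie below it, and those of Fn1, Fmod and Lum both lie above it.

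Markers of the labelled and of other cells moved in the same comparison. In adult culture 8 of 9 astrocyte, 7 of 8 oligodendrocyte and 8 of 8 ependymal markers fell and none rose, the ependymal sums being 281 to 405 CPM in AdAC CellC and 1629 to 1861 CPM in AdAC direct. Of 10 fibroblast and meningeal markers, 6 rose in adult culture and 2 fell, with sums of 1088 to 1579 CPM in AdAC CellC and 82.5 to 100.3 CPM in AdAC direct. The dermatopontin gene Dpt, one of these markers, was at 3 counts or fewer in each AdAC direct library. Of 8 pericyte and smooth muscle markers, 3 rose (Acta2, Myh11 and Tagln) and 5 fell (Kcnj8, Abcc9, Pdgfrb, Rgs5 and Higd1b), with sums of 1673 to 2003 CPM against 343 to 361 CPM. Of the 7 tested markers of oligodendrocyte precursors, a known source of Bcan and Tnr, 4 fell and none rose, with sums of 323 to 568 CPM in AdAC CellC and 1056 to 1277 CPM in AdAC direct. The neural stem cell markers summed to 1940 to 2376 CPM in AdAC CellC and 799 to 952 CPM in AdAC direct. The neuron markers summed to 56.1 to 84.7 CPM and 14.9 to 17.8 CPM in turn. The part of such cells in the changes of the 10 genes was not tested.

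**Figure D3:**
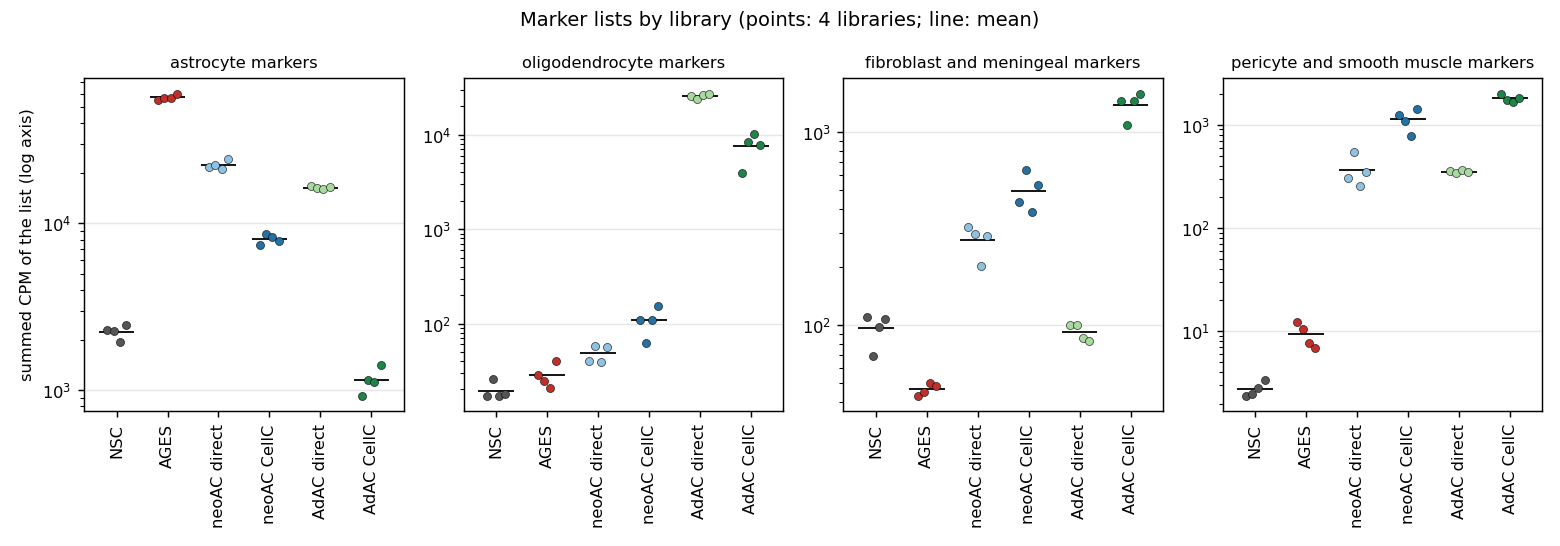
Summed CPM of 4 marker lists in every library on a log axis, by group. The astrocyte sum was lowest in AdAC CellC, at 918 to 1411 CPM, and the fibroblast and meningeal sum was highest there, at 1088 to 1579 CPM.

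In neonatal cells the same comparison, neoAC CellC with neoAC direct, gave another pattern. All of the lecticans and Tnc fell, and Fn1, Tnr, Fmod and Lum rose, so that 9 of the 10 changed where 65.7% of all genes were called, 34.4% higher and 31.3% lower. Scaling by library size alone turned the calls over all genes from 6766 higher and 6170 lower to 8628 and 4468, and changed the direction of none of the 10. Ncan was 24.2-fold lower (log2 fold change -4.59, SE 0.18, adjusted p = 1.19e-16 by edgeR), a size that 1.82% of genes reached. Acan was 21.8-fold lower (-4.43, SE 0.31, adjusted p = 2.96e-12 by edgeR) and Vcan 12.2-fold (-3.61, SE 0.24, adjusted p = 1.02e-11). Bcan was 8.77-fold lower (-3.13, SE 0.15) and Tnc 6.69-fold lower (-2.74, SE 0.24). Fmod was 13.3-fold higher (3.74, SE 0.20, adjusted p = 8.55e-14 by edgeR), Lum 6.95-fold (2.79, SE 0.31, adjusted p = 6.47e-08), Fn1 2.79-fold (1.48, SE 0.26) and Tnr 1.90-fold (0.93, SE 0.15). Dcn, with overlapping libraries, did not pass (0.47, adjusted p = 0.11 by edgeR), though it did under library size scaling (0.69, adjusted p = 0.0228) and without the fourth neoAC direct or the third neoAC CellC library (0.75 and 0.63, adjusted p = 0.0125 and 0.0369), over a range of 0.0125 to 0.497 among its alternatives. Libraries did not overlap for 9 genes (58.0% of all genes). The fibroblast and meningeal list again had 6 of 10 markers higher and 2 lower in culture (386 to 634 against 201 to 323 CPM). Its transporter gene Slc47a1 was at 3 counts or fewer in each neoAC CellC library. Of 9 astrocyte markers 7 fell and 1 rose, and of 8 oligodendrocyte markers 6 rose and none fell. All 8 ependymal markers rose (1734 to 2230 against 167 to 256 CPM). Of 8 pericyte and smooth muscle markers 6 fell and 2, Acta2 and Tagln, rose, while the sum was higher in culture (769 to 1432 against 256 to 540 CPM). Kcnj8 and Higd1b were at 3 counts or fewer in each cultured library. Of 8 endothelial markers 7 fell and none rose (43.7 to 71.5 against 99.8 to 392 CPM). Of the 7 oligodendrocyte precursor markers tested 3 rose and 2 fell (sums of 392 to 955 against 763 to 1075 CPM). The neural stem cell markers summed to 2176 to 3007 CPM in culture and 6796 to 8608 CPM without. The neuron markers summed to 30.0 to 33.1 CPM and 39.3 to 57.3 CPM in turn. The part of such cells in the changes was not tested.

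The interaction term compares the change with culture between the ages, adult minus neonatal. It passed for 9 of the 10 genes, where 68.6% of all genes passed, 35.4% positive and 33.2% negative. Tnc had the widest gap (9.49, adjusted p = 6.84e-16 by edgeR), since it rose in adult and fell in neonatal cells, and Vcan did likewise (6.45, adjusted p = 1.53e-13). For Tnr the directions were turned, with a fall in adult and a rise in neonatal cells (-1.69, adjusted p = 1.99e-07 by edgeR). Ncan fell in both but less in adult cells (3.90, adjusted p = 1.69e-13 by edgeR), and Bcan fell in both and more in adult cells (-2.69, adjusted p = 7.52e-12). Fn1 and Fmod rose more in adult cells (4.07 and 0.91, adjusted p = 2.49e-09 and 0.00448 by edgeR) and Lum rose more in neonatal cells (-1.46, adjusted p = 0.00759). Acan also passed (5.39, adjusted p = 6.5e-08 by edgeR). Its adult libraries together held 21 counts in culture and 10 without, and none was past the low-count cutoff. That adult change did not pass on its own. Dcn did not pass the interaction test (0.20, adjusted p = 0.65 by edgeR). The interaction shares all of its libraries with the comparisons above, so the removal of brain regions stated for AdAC direct bears on it too.

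After culture the ages still differed. Between neoAC CellC and AdAC CellC all 10 genes passed, 7 higher and 3 lower in neonatal cells, where 63.8% of all genes passed, 28.5% higher and 35.2% lower. Fn1, Tnc and Vcan were 3.96-fold, 3.36-fold and 2.20-fold lower in cultured neonatal than in cultured adult cells (log2 fold changes of -1.99, -1.75 and -1.14). In uncultured cells these same genes had been higher in the neonatal libraries. Bcan was 9.53-fold higher in cultured neonatal cells (3.25), Lum 5.22-fold (2.38), Tnr 4.46-fold (2.16) and Ncan 1.54-fold (0.62). Libraries did not overlap for 7 genes (62.2% of all genes). Acan, Fmod and Dcn passed with overlapping libraries (1.31, 0.49 and 0.69, adjusted p = 0.00771, 0.0224 and 0.0209 by edgeR), and each lost its call without a single library. Without the fourth neoAC CellC library Acan and Fmod stood at 0.92 and 0.41 (adjusted p = 0.0632 and 0.0706 by edgeR), and Fmod also lost its call without the fourth AdAC CellC library (0.46, adjusted p = 0.0504). For Dcn this held without the second neoAC CellC library (0.43, adjusted p = 0.142 by edgeR) or the third AdAC CellC library (0.65, adjusted p = 0.0537). Over all alternatives the adjusted p ran from 0.00109 to 0.0632 for Acan, 0.00127 to 0.0706 for Fmod and 0.00614 to 0.142 for Dcn. The DESeq2 size factors shifted the median of all genes from -0.08 to 0.02 in this comparison, turned the calls over all genes from 5620 higher and 6941 lower to 6383 and 5896, and changed no direction among the 10. The fibroblast and meningeal list had 3 markers higher and 4 lower in neonatal culture, and the pericyte and smooth muscle list 7 of 8 lower (769 to 1432 against 1673 to 2003 CPM). Of the 7 oligodendrocyte precursor markers tested 5 were higher in neonatal culture and 1 lower (sums of 392 to 955 against 323 to 568 CPM). All 9 astrocyte markers were higher, as were 7 of 8 ependymal markers with none lower (1734 to 2230 against 281 to 405 CPM). All 8 oligodendrocyte markers were lower, as were 7 of 8 endothelial markers with 1 higher (43.7 to 71.5 against 75.5 to 87.1 CPM). The part of such cells in the differences was not tested.

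AGES compared with NSC show what differed after differentiation in 1 line. NSC were kept on gelatin with EGF and FGF and AGES on poly-L-ornithine and laminin with BMP4, so coating, growth factors and BMP4 cannot be told apart. Fmod, Fn1, Tnr and Ncan rose and Vcan, Acan and Tnc fell, so that 7 of 10 changed, where 65.7% of all genes were called, 31.7% higher and 34.0% lower. Fmod was 1751-fold higher by the means (log2 fold change 10.77, SE 0.29, adjusted p = 6.34e-20 by edgeR) and ranked 1 of all 19691 genes. Fn1 was 30.03-fold higher (4.91, SE 0.30, adjusted p = 1.18e-12 by edgeR), Tnr 9.94-fold (3.31, SE 0.16, adjusted p = 3.07e-15) and Ncan 3.04-fold (1.61, SE 0.16, adjusted p = 2.29e-09). Vcan was 12.2-fold lower (-3.61, SE 0.25, adjusted p = 6.72e-12 by edgeR). Bcan stood at 1243 ± 55.0 CPM in NSC and 1319 ± 140 CPM in AGES (SD, n = 4), a difference of 0.09 (SE 0.14) that did not pass (adjusted p = 0.607 by edgeR). Tnc was called lower (-0.65, SE 0.23, adjusted p = 0.0153 by edgeR), but the libraries overlapped. That call was lost without the second NSC library (-0.26, adjusted p = 0.205 by edgeR), without the fourth AGES library (-0.53, adjusted p = 0.0605), without a filter on low counts (-0.57, adjusted p = 0.0795) and in a fit of these groups alone (-0.56, adjusted p = 0.135), over a range of 0.00272 to 0.205 among its alternatives. Acan fell from 11 counts to 1, a ratio of 10.7 with an exact 95% interval of 1.56 to 461, and was not called without the first NSC library (-2.24, adjusted p = 0.0692 by edgeR; range 0.00477 to 0.0692). Dcn, at 6 counts against 2, and Lum, at 0 against 5, did not pass. Libraries did not overlap for 5 genes (58.3% of all genes). Of the 7 oligodendrocyte precursor markers tested 3 fell (Olig1, Olig2 and Lhfpl3) and 1 rose, with sums of 1803 to 2159 CPM in NSC and 284 to 383 CPM in AGES. Gpr17 and Neu4 were at 3 counts or fewer in each library of both groups. Of 9 astrocyte markers 6 rose and none fell. The part of these programmes in the changes was not tested. Within AGES, the third library was highest in Fn1, Tnc and Fmod and the fourth lowest, whereas the fourth was highest in Vcan and Ncan.

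**Figure D4:**
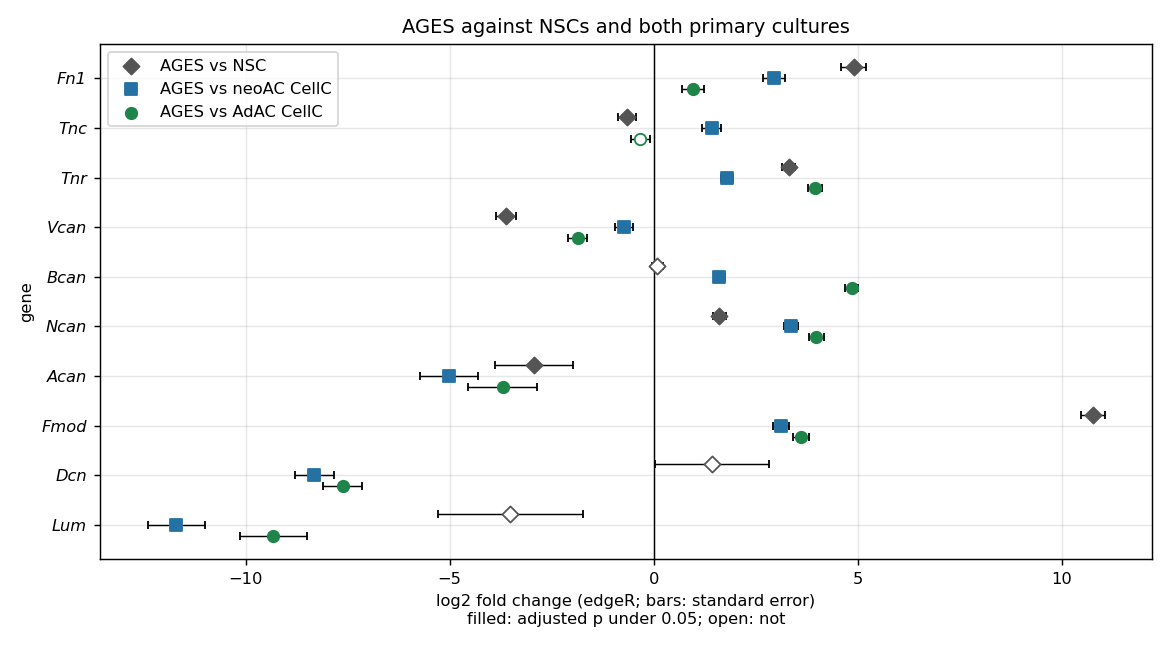
Difference of AGES from NSC (grey diamonds), from cultured neonatal astrocytes (squares) and from cultured adult astrocytes (circles), as log2 fold change with bars of 1 SE. Filled symbols are called at an adjusted p under 0.05. AGES were above all 3 in Fn1, Tnr, Ncan and Fmod and below all 3 in Vcan, and the fitted values of Dcn and Lum against the cultures rest on 6 and 0 counts in AGES.

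Set beside the cultured primary astrocytes, AGES held more Fn1, Tnr, Bcan, Ncan and Fmod and less Vcan, Acan, Dcn and Lum than either culture. Against AdAC CellC 9 of the 10 genes passed, 5 higher and 4 lower, where 76.2% of all genes were called, 31.0% higher and 45.2% lower. Against neoAC CellC all 10 passed, 6 higher and 4 lower, where 74.6% were called, 34.1% higher and 40.5% lower. The median of all genes was -0.23 against AdAC CellC under TMM and -0.45 under library size scaling, which turned the calls over all genes from 6105 higher and 8897 lower to 4817 and 10277, and the direction of the 10 genes did not change. Against neoAC CellC the median was -0.07 and -0.37, and the calls went from 6710 higher and 7977 lower to 4504 and 9822, again with no change of direction among the 10. Libraries did not overlap for 9 genes against AdAC CellC (73.1% of all genes) and for 9 against neoAC CellC (69.6%). Bcan was 29.0-fold higher than in adult cultures (log2 fold change 4.86, SE 0.16, adjusted p = 3.06e-19 by edgeR) and 3.05-fold higher than in neonatal cultures (1.61, SE 0.14). Ncan was 15.9-fold and 10.3-fold higher, Tnr 15.6-fold and 3.49-fold, Fmod 12.2-fold and 8.69-fold, and Fn1 1.95-fold and 7.71-fold, against adult and neonatal cultures in turn. Tnc differed from neonatal cultures (1.42, SE 0.23, adjusted p = 8.12e-06 by edgeR). From adult cultures its difference was -0.33 (SE 0.23, adjusted p = 0.196 by edgeR), called only under library size scaling (-0.55, adjusted p = 0.0262) and without the third AGES library (-0.53, adjusted p = 0.0446), over a range of 0.0262 to 0.537 among its alternatives. Vcan was 3.64-fold lower than in adult cultures (-1.86, adjusted p = 1.51e-07 by edgeR). Against neonatal cultures its difference was -0.73 (adjusted p = 0.00654 by edgeR), with overlapping libraries and a call lost in a fit of these groups alone (-0.77, adjusted p = 0.0534; range 1.46e-08 to 0.0534).

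Dcn, at 6 counts in AGES, was lower than in adult cultures by a ratio of 213 (exact 95% interval 97.5 to 581) and than in neonatal cultures by a ratio of 348 (159 to 948). Lum, at 0 counts in AGES, was at least 99.7-fold and at least 522-fold lower, set against a floor of 3 counts over the group, and the exact 95% lower limits of these ratios, for counting error only, were 80.6 and 424. Acan, at 1 count in AGES, was lower by ratios of 18.7 (3.01 to 773) and 47.0 (8.09 to 1890). The fibroblast and meningeal sum was 42.8 to 50.3 CPM in AGES, with Dpt and the transporters Slc6a13 and Slc47a1 at 3 counts or fewer in each library. The pericyte and smooth muscle sum was 6.94 to 12.3 CPM in AGES, with Kcnj8, Abcc9 and Higd1b at 3 counts or fewer in each library. The part of such cells in the levels of Dcn and Lum in primary cultures was not tested.

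Per kilobase of exon, the balance among the 10 genes differed between the groups. Lecticans made up 98.3% ± 0.290 of the summed level in AdAC direct (SD, n = 4) and 86.3% ± 1.66 in neoAC direct. In cultured cells they made up 47.8% ± 5.13 at the neonatal and 11.9% ± 2.23 at the adult age. In AdAC CellC the tenascins held 38.6% ± 2.21 and Fn1 36.99% ± 5.24, so that both stood above the lecticans, which was the case in no other group. In AGES lecticans held 45.3% ± 8.51, the small leucine-rich proteoglycans 30.9% ± 5.29, nearly all of it Fmod, and Fn1 15.8% ± 2.46. NSC had 70.6% ± 8.18 lecticans and 27.96% ± 8.07 tenascins. The summed level itself was 2623 ± 335 CPM per kb in neoAC direct, 1973 ± 328 in AGES, 729.9 ± 127 in NSC, 701 ± 93.3 in AdAC direct, 436 ± 47.3 in AdAC CellC and 341 ± 2.77 in neoAC CellC.

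Among the lecticans the partition between Bcan and Ncan also differed. Bcan was 91.7% of the lectican level in AdAC direct, 65.2% in neoAC CellC, 60.3% in NSC, 41.1% in neoAC direct, 37.5% in AGES and 21.7% in AdAC CellC. Ncan was 8.18% in AdAC direct and 66.4% in AdAC CellC, and Vcan reached 11.9% in AdAC CellC and stayed at 3.99% or less elsewhere. The ratio of Ncan to Bcan per kilobase was 0.0892 in AdAC direct, 1.40 in neoAC direct, 3.07 in AdAC CellC and 0.508 in neoAC CellC, so that culture went with a higher ratio in adult and a lower ratio in neonatal cells. These shares follow from the levels given above and were not tested on their own.

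**Figure D5:**
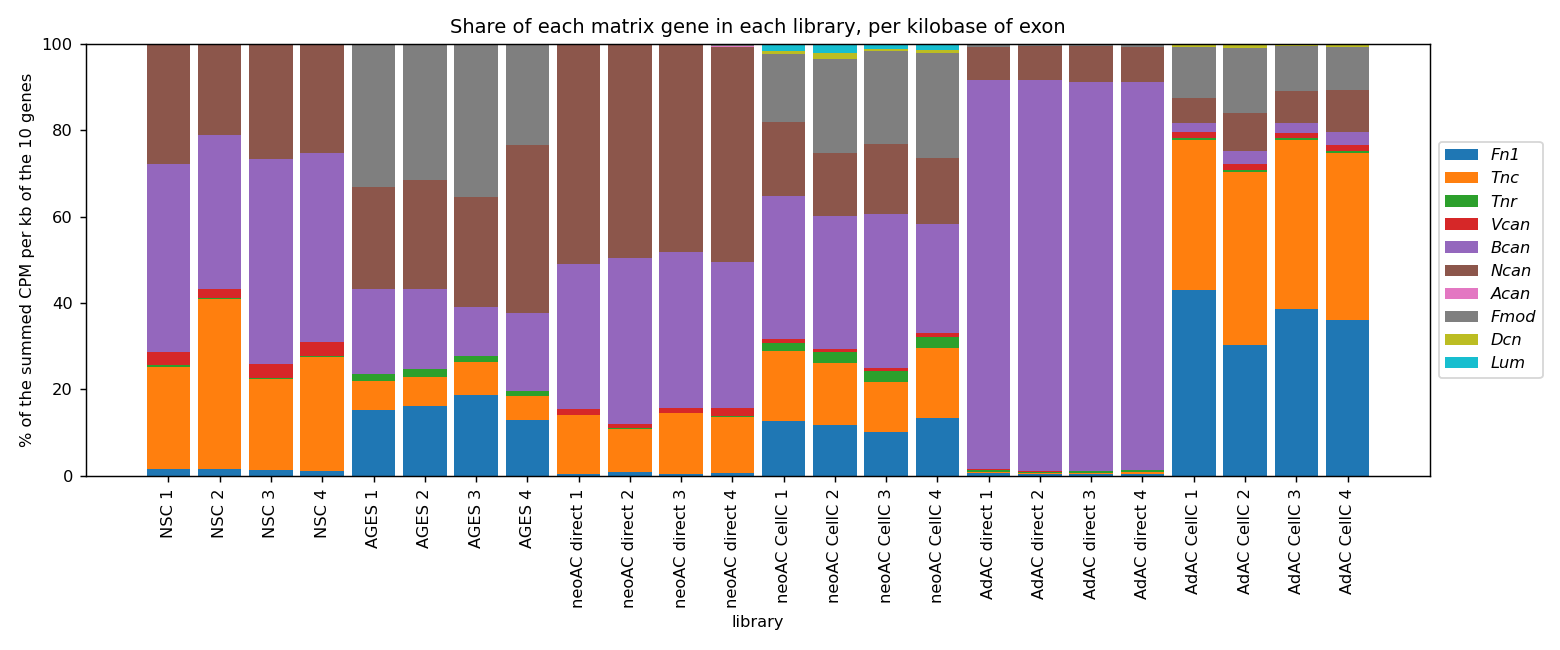
Share of each gene in the summed CPM per kb of the 10 genes, 1 stacked bar per library, in percent. Bcan fills most of the AdAC direct bars, Tnc and Fn1 most of the AdAC CellC bars, and Fmod is visible as a broad band in AGES and neoAC CellC.

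Other genes of the matrix were described by 8 lists of 121 genes. Over all genes tested the share called was 78.0% in adult culture, 65.7% in neonatal culture and in AGES against NSC, 71.4% between uncultured cells of the 2 ages and 68.6% for the interaction, and the counts below are to be read against these shares. Of 14 genes for hyaluronan synthesis, link proteins and hyaluronan receptors, 7 rose, 6 fell and 1 did not pass in adult culture, and 5 rose, 7 fell and 2 did not pass in neonatal culture. Hapln1, a link protein that ties lecticans to hyaluronan, fell from 62.9 ± 4.44 to 0.577 ± 0.209 CPM in adult culture (log2 fold change -6.74, adjusted p = 2.63e-19 by edgeR). Has2, a hyaluronan synthase, fell from 36.3 ± 9.49 to 0.293 ± 0.245 CPM in neonatal culture (-6.93, adjusted p = 5.84e-14 by edgeR). Hapln2, a link protein of nodes of Ranvier, was at 0.431 ± 0.113 CPM in uncultured neonatal and 460 ± 18.1 CPM in uncultured adult cells, where the oligodendrocyte markers were also high. In AGES the hyaluronan receptor gene Cd44 was at 703 ± 239 CPM, against 276 ± 38.8 CPM in NSC (1.35, adjusted p = 7.15e-08 by edgeR). The gene of a second receptor, Hmmr, which is also a mitotic spindle gene, was at 0.232 ± 0.101 CPM in AGES and 183 ± 10.01 CPM in NSC.

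Of 21 genes for chondroitin sulfate synthesis and sulfation, 15 rose and 3 fell in adult culture, whereas 6 rose and 14 fell in neonatal culture. The interaction passed for 17 of the 21, with 15 positive and 2 negative. The median log2 fold change of the list was 0.74 in adult and -0.44 in neonatal culture, against 0 and 0.04 over all genes. Chst7, a sulfotransferase, rose from 2.18 ± 0.302 to 18.8 ± 2.85 CPM in adult culture (3.10, adjusted p = 7.61e-14 by edgeR), and Csgalnact1, which starts the chondroitin chain, fell from 43.1 ± 2.43 to 9.86 ± 1.13 CPM. Chst3, another sulfotransferase, fell from 98.9 ± 14.6 to 12.8 ± 2.40 CPM in neonatal culture (-2.95, adjusted p = 1.48e-10 by edgeR). In AGES against NSC 5 rose and 12 fell, with Xylt1, which adds the first sugar of the chain, at 23.6 ± 5.95 CPM in AGES and 419 ± 10.7 CPM in NSC. Between uncultured cells 12 of the 21 were higher and 3 lower at the neonatal age.

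Of 19 other chondroitin and heparan sulfate proteoglycans, 9 rose and 9 fell in adult culture, 6 rose and 11 fell in neonatal culture, and 8 rose and 6 fell in AGES against NSC. Ptprz1, a receptor phosphatase that binds Tnc and whose shed ectodomain is the proteoglycan phosphacan, was at 10792 ± 1297 CPM in uncultured neonatal and 918 ± 59.7 CPM in uncultured adult cells (3.56, adjusted p = 1.48e-16 by edgeR). Cspg5 fell from 1828 ± 218 to 123 ± 23.1 CPM in neonatal culture, and the glypican gene Gpc5 from 113 ± 2.60 to 0.358 ± 0.223 CPM in adult culture. Of 13 other small leucine-rich proteoglycans, 6 rose and 5 fell in adult culture, 6 rose and 3 fell in neonatal culture, and 8 rose and 1 fell in AGES against NSC. Podn, a collagen-binding member, was at 184 ± 116 CPM in AGES and 0.233 ± 0.0441 CPM in NSC (9.61, adjusted p = 5.45e-15 by edgeR). Ogn rose from 5.79 ± 3.52 to 107 ± 26.3 CPM in neonatal culture.

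Of 16 receptor genes listed with fibronectin and tenascins, 12 rose and 4 fell in adult culture and 5 rose and 6 fell in neonatal culture. Besides integrin subunits the list holds Cntn1, Ptprs, Ptprf, Rtn4r, Rtn4rl1, Rtn4rl2 and Egfr, not all of which are fibronectin or tenascin receptors in the first place. Of these, Ptprs, Ptprf, Rtn4rl1 and Rtn4rl2 rose in adult culture, and Cntn1, Rtn4r and Egfr fell. Itga5, the alpha subunit of the main fibronectin receptor, was at 7.21 ± 1.18 CPM in uncultured and 185 ± 22.5 CPM in cultured adult cells (4.68, adjusted p = 1.54e-13 by edgeR), and at 46.7 ± 15.8 CPM in AGES. Itga9, a receptor subunit for Tnc, was at 290 ± 34.4 CPM in NSC and 18.3 ± 0.713 CPM in AGES (-3.98, adjusted p = 8.27e-19 by edgeR). Of 24 other fibrillar and matricellular glycoproteins, 19 rose and 5 fell in adult culture and 17 rose and 7 fell in neonatal culture, with median log2 fold changes of 2.46 and 0.99. Thbs1, thrombospondin 1, rose from 4.56 ± 0.885 to 2705 ± 400 CPM in adult culture (9.21, adjusted p = 4.3e-20 by edgeR). Sparcl1 (hevin), a secreted protein of astrocytes, was at 4270.2 ± 353 CPM in uncultured and 180 ± 40.3 CPM in cultured adult cells, and at 4034 ± 763 CPM in AGES. Its highest mean, 7835 CPM, was in uncultured neonatal cells, and cultured neonatal cells held 1179 ± 131 CPM. Of 8 lectican-cleaving proteases and their inhibitor, 5 rose and 2 fell in adult culture and 3 rose and 2 fell in neonatal culture. Adamts8 was higher in culture at both ages, at 34.5 ± 4.18 against 2.10 ± 0.266 CPM in adult and 28.1 ± 6.52 against 2.99 ± 0.755 CPM in neonatal cells. Adamts4, a protease of Bcan and Acan, was at 237 ± 9.21 CPM in uncultured adult and 14.6 ± 1.95 CPM in uncultured neonatal cells. In culture it stood at 95.1 ± 23.3 CPM in adult and 3.63 ± 0.902 CPM in neonatal cells. The oligodendrocyte markers were also higher in the adult cells, and the part of oligodendrocytes in Adamts4 was not tested. The remaining lectican and tenascin genes, Tnxb and Tnn, both rose in AGES against NSC, and Tnxb fell in adult culture.

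The genes whose group means ran most like each member over the 6 groups were named by the root mean square of the log2 differences after centring, among 12118 genes. For Fn1 these were Pdlim7 (0.632) and Prss23 (0.820), for Tnc Dusp5 (0.812) and Dpysl3 (1.11), and for Tnr Stom (0.354) and Dbi (0.417). For Vcan they were Inka2 (0.696) and Sapcd2 (0.713), for Bcan Gabrg1 (0.517) and Sparcl1 (0.674), and for Ncan Robo2 (0.810) and Tspan11 (0.831). Acan ran closest to Kcnj6 (0.566) and Cntnap5b (0.621), Fmod to Hspb8 and Serpinf1 (both 1.38), Dcn to Saysd1 (0.216) and Cdkn1c (0.259), and Lum to Pxdc1 (0.493) and Dsc2 (0.520). Fmod was thus the gene with the most distant nearest pattern of the 10. The likeness is a description over 6 means and carries no test.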

How the data were processed

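Poly(A) RNA of 24 samples was sequenced with a stranded, paired-end kit. Per the submitters' processing notes, reads were demultiplexed with bcl2fastq 2.20, aligned with STAR 2.7.3a to GRCm38 and counted per gene over exons with featureCounts. The methods name Gencode vM12, and the strand setting is not given in the sources used here. The values deposited by the authors were raw counts of 49671 genes, not normalized. Replicates were separate isolations or cultures, and no 2 libraries agreed within sampling noise.

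Genes with low counts were removed with filterByExpr, and edgeR 4.0.16 (R 4.3.3) fitted 1 quasi-likelihood model over 6 groups with TMM scaling. Tests were two-sided, with Benjamini-Hochberg adjustment over 19691 genes. A group at 3 counts or fewer was taken as at the floor, and for groups of up to 20 counts ratios carry exact 95% intervals, which cover counting error only. Alternatives were DESeq2 1.42.0, other scalings and filters, a fold limit, a fit of the compared groups alone, the replicate number as a block, and leaving out each library. The tests were tried on simulated data. Positions came from Gencode vM21, and upstream sequences from RefSeq. Genes outside the 10 were named by rule: for each list and comparison, the called gene with the largest difference in each direction among those at 10 CPM or more in either group, and for likeness the 2 nearest of the protein-coding genes at that level. Of these, the text gives those whose roles bear on the 10 genes, chosen after their values were seen. The 10 genes, the lists and the markers were chosen with earlier results of these data known.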

Additional observations from a re-analysis of the deposited data

Results flagged for a closer look

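Among 53 sets of 4 libraries looked at, 4 had a library far from the other 3, where chance alone gives about 1 in 20. The second AdAC CellC library was lowest in Fn1, at 1331 CPM, with a gap of 0.853 of the range of its group, and it was also lowest in the fibroblast and meningeal sum, at 1088 CPM. The first neoAC CellC library was lowest in Tnr, at 78.0 CPM (gap 0.870). The fourth AGES library was highest in Vcan, at 44.5 CPM (gap 0.872). The second AdAC direct library was highest in Fmod, at 7.41 CPM (gap 0.911).

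The change with culture differed between adult and neonatal cells by the interaction test in 9 genes, as adult minus neonatal log2 fold change: Tnc 9.49, Vcan 6.45, Acan 5.39, Fn1 4.07, Ncan 3.90, Fmod 0.91, Lum -1.46, Tnr -1.69 and Bcan -2.69. For Tnc, Vcan and Tnr the directions in the 2 ages were opposite, and each direction passed the test on its own. For Acan the change in adult cells, at 21 counts against 10, did not pass on its own.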

How the results depend on the processing

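Of 1329 values of single genes recomputed under an alternative, 1290 kept their direction and their side of the threshold, 33 lost the call, 5 gained it and 1 turned its direction. The turned value was the interaction of Dcn, which was not called at 0.20 and stood at -0.084 without the fourth neoAC direct library (range without 1 library -0.084 to 0.47). With a call limited to absolute log2 fold changes over 1, 6 of the 10 genes were called between neoAC direct and AdAC direct in place of 10, and 27 of 50 neighbouring pairs of groups were not called in place of 13. Under a filter of 10 counts in each library, Acan, Dcn and Lum gave no value. The replicate number as a block changed no count of called genes, with 9 of 10 in adult culture, 9 in neonatal culture and 7 in AGES against NSC, and it is not a pairing: deviations of same-numbered libraries had a median correlation of 0.00268 over 60 pairs (-0.151 to 0.106). Acan in all but neoAC direct libraries, and Dcn and Lum in NSC and AGES, rested on few counts.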
